A study of Mus musculus with 10 samples.

Results

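The 10 tumours of this series were divided by how much T cell receptor RNA they held, and the 4 T cell infiltrated tumours were compared with the 6 T cell poor tumours. The division was chosen by measured values, not by the study's own groups. For each tumour the raw read counts of TRAC, TRBC1 and TRBC2, the constant segments of the alpha and beta chains of the T cell receptor, were added, and a sum of 40 counts or more made a tumour infiltrated. Infiltrated were 1 of the 5 tumours of the control group (control tumour 3) and 3 of the 5 tumours of the IL-15 group (IL-15 tumours 1, 3 and 4). Poor were control tumours 1, 2, 4 and 5 and IL-15 tumours 2 and 5.

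All tumours were subcutaneous xenografts in mice of the genotype NOD.Cg-Prkdcscid Il2rgtm1Wjl/SzJ. LNCaP cells, a human prostate cancer line that depends on androgen, formed them. These mice lack their own T, B and NK cells but keep mouse myeloid cells, and the table holds human genes only. No source used here says whether mouse reads were removed before counting, so values of genes that the mouse stroma also expresses are uncertain. The cell product sipuleucel-T (sip-T), in 100 µl of PBS, was injected into the peritoneum of every mouse 4 times, once a week. Sip-T is made by culturing human blood mononuclear cells with the prostate antigen PAP joined to the cytokine GM-CSF. The IL-15 group also received 1 µg of recombinant IL-15, on which T and NK cells depend for survival. Whether the cells met IL-15 in culture or in the mouse cannot be told apart, because the sample labels name control sip-T given with IL-15 and the series text names cells already treated with it. Tumours were collected 7 days after the last injection. The labels name neither the cell donors nor the mouse of each tumour, and p-values therefore measure the spread between these samples.

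T cells recognise peptides on MHC molecules through the alpha and beta receptor chains, which signal through the CD3 proteins and the kinases LCK and ZAP70. CD8 T cells bind MHC class I and kill with perforin and granzymes, while CD4 T cells bind MHC class II. Interferon gamma from activated T cells can raise antigen presentation genes in tumour cells, which is why tumour genes were set apart here from lymphocyte genes. In bulk RNA, fewer cells of a type and less RNA per cell cannot be told apart.

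Sums of the 3 defining genes were 78 counts in control tumour 3, 152 in IL-15 tumour 1, 91 in IL-15 tumour 3 and 79 in IL-15 tumour 4. In the poor tumours the lowest sum was 1, the median 11 and the highest 14, so the values just inside and just outside the threshold were 78 and 14 and no tumour lay between them. In counts per 1e+06 assigned reads (CPM), infiltrated tumours held 4.96 to 11.2 CPM and poor tumours 0.0573 to 0.929 CPM. A count of 3 corresponded to 0.155 to 0.221 CPM, a limit that covers counting error only. Total counts ran from 13627798 to 15722098 in infiltrated and from 13560224 to 19324056 in poor tumours. The defining sums themselves support nothing below, since they made the division.

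**Figure D1:**
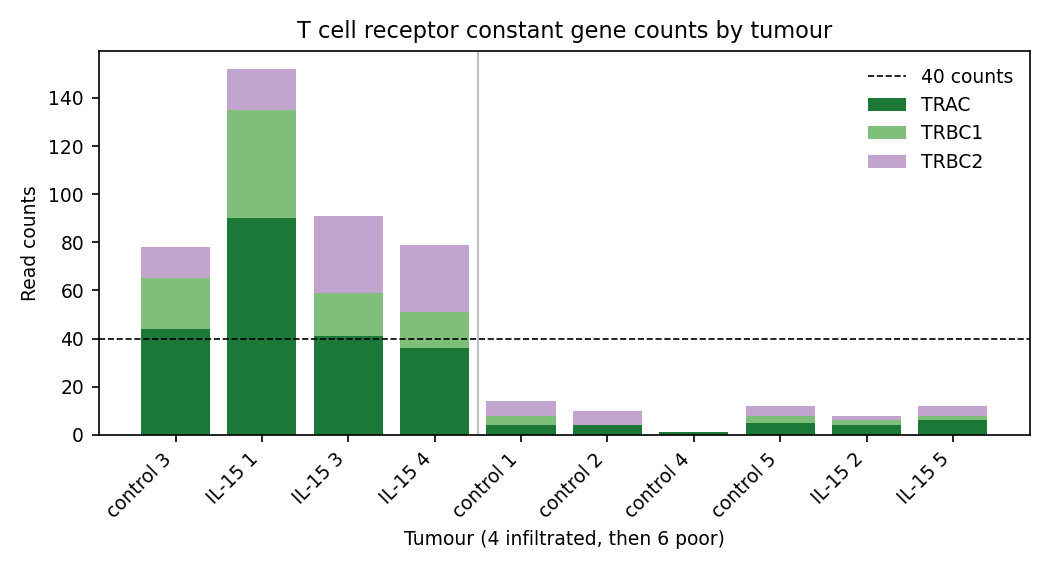
Raw read counts of TRAC, TRBC1 and TRBC2 (stacked bars) in each tumour, with the 4 infiltrated tumours on the left and the 6 poor tumours on the right and a dashed line at 40 counts. Infiltrated tumours reach 78 to 152 counts and poor tumours 1 to 14.

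Variable segments of the alpha and beta chains, which the rule did not use, were summed as well. They totalled 31, 59, 29 and 80 counts in control tumour 3 and IL-15 tumours 1, 3 and 4, and 6 to 38 counts in the poor tumours, so the totals overlapped. The number of such segments with at least 1 count was 16 to 20 in infiltrated and 5 to 9 in poor tumours, without overlap. These segments belong to the same receptor chains as the defining genes, so their values are a description. In control tumours 1, 2, 4 and 5 and IL-15 tumours 2 and 5 they totalled 21, 6, 17, 30, 38 and 18 counts. The defining sums there were 14, 10, 1, 12, 8 and 12, and which transcripts gave the segment counts was not tested.

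The genes that edgeR called across the genome were scarce transcripts, all higher in infiltrated tumours. With edgeR's quasi-likelihood test and Benjamini-Hochberg adjustment, 24 of 17397 tested genes had an adjusted p under 0.05 and were higher in infiltrated tumours (0.138% of genes), and 0 were lower (0%). At an unadjusted p under 0.05, 476 genes were higher (2.74%) and 304 lower (1.75%). Of all tested genes, 122 were higher without overlap between the 4 and the 6 tumours (0.701%) and 43 lower without overlap (0.247%), while 49.2% had a log2 fold change above 0. The median over all genes was -0.0049. The calls included 11 of the 65 tested genes of the leukocyte lists, 13 of 7047 other genes with a mean under 10 CPM, and 0 of 10285 other genes with a mean of 10 CPM or more. The 11 were RAC2, PTPRC, GNLY, GZMB, CORO1A, ITGAL, LAPTM5, CD6, CD8A, IKZF1 and GRAP2. DESeq2 called 67 higher and 0 lower, 8 of them outside the leukocyte lists with a mean of 10 CPM or more, and limma voom 29 higher and 0 lower.

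These counts describe the division and do not support it. Of the 24 called genes, 14 reached the filter's cutoff of 0.673 CPM in no poor tumour, and 20 reached it in fewer than 4 poor tumours. The filter asks for 4 tumours at the cutoff, so these 20 entered the test through the tumours where they were high. The 24 calls also rested on few tumours. Without control tumour 1, control tumour 5, IL-15 tumour 1 or IL-15 tumour 3, edgeR called 0 genes, and without control tumours 2, 3 or 4 or IL-15 tumours 2, 4 or 5 it called 6, 22, 13, 13, 10 and 19. With treatment as a covariate, RAC2 and PTPRC remained.

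Genes of the T cell receptor complex and its coreceptors followed the division. They come from the same cells as the defining genes, so their values are given as a description, and the calls among them are read as no evidence. Of 16 listed genes 11 were higher in every infiltrated than in every poor tumour, and of the 8 that passed the filter 6. Over all 40716 genes with a count, tested or not, 286 were higher without overlap (0.702%). CD3D, a signalling chain of the receptor complex, had 9, 23, 9 and 15 counts in control tumour 3 and IL-15 tumours 1, 3 and 4, and 1, 1, 0, 1, 2 and 0 counts in control tumours 1, 2, 4 and 5 and IL-15 tumours 2 and 5. In the same order, its partner CD3E had 18, 36, 15 and 19 counts against 0, 1, 0, 0, 4 and 7. Both chains were present in each infiltrated tumour and were at or near the limit of 3 counts in most poor tumours.

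CD8A, the alpha chain of the coreceptor of cytotoxic T cells (ENSG00000153563, chromosome 2, 86784610 to 86808396 on hg38), measured 3.88, 12.03, 10.7 and 5.497 CPM in control tumour 3 and IL-15 tumours 1, 3 and 4, and 0.527 CPM (lowest), 1.26 (median) and 2.80 (highest) in poor tumours, a 6.03-fold difference in mean (log2 fold change 2.51 ± 0.43, standard error). The highest poor tumour was IL-15 tumour 5, still under control tumour 3. CD8B, the beta chain, had 9, 58, 18 and 17 counts against 1, 1, 0, 1, 2 and 5. CD4, the coreceptor of helper T cells, had 29, 24, 50 and 35 counts against 9, 7, 41, 26, 35 and 15, so its sets overlapped. Per length of transcript, CD8A averaged 1.90 FPKM and CD4 0.454 FPKM in infiltrated tumours, against 0.337 and 0.274 FPKM in poor tumours. CD8 coreceptor transcripts thus differed between the sets without overlap and CD4 did not, although the difference between both genes was not tested. Poor control tumour 4 had 41 counts of CD4 beside 5 of the leukocyte gene PTPRC and a defining sum of 1. Which cells made the CD4 counts was not tested, so CD4 is not read here as a measure of helper T cells.

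**Figure D2:**
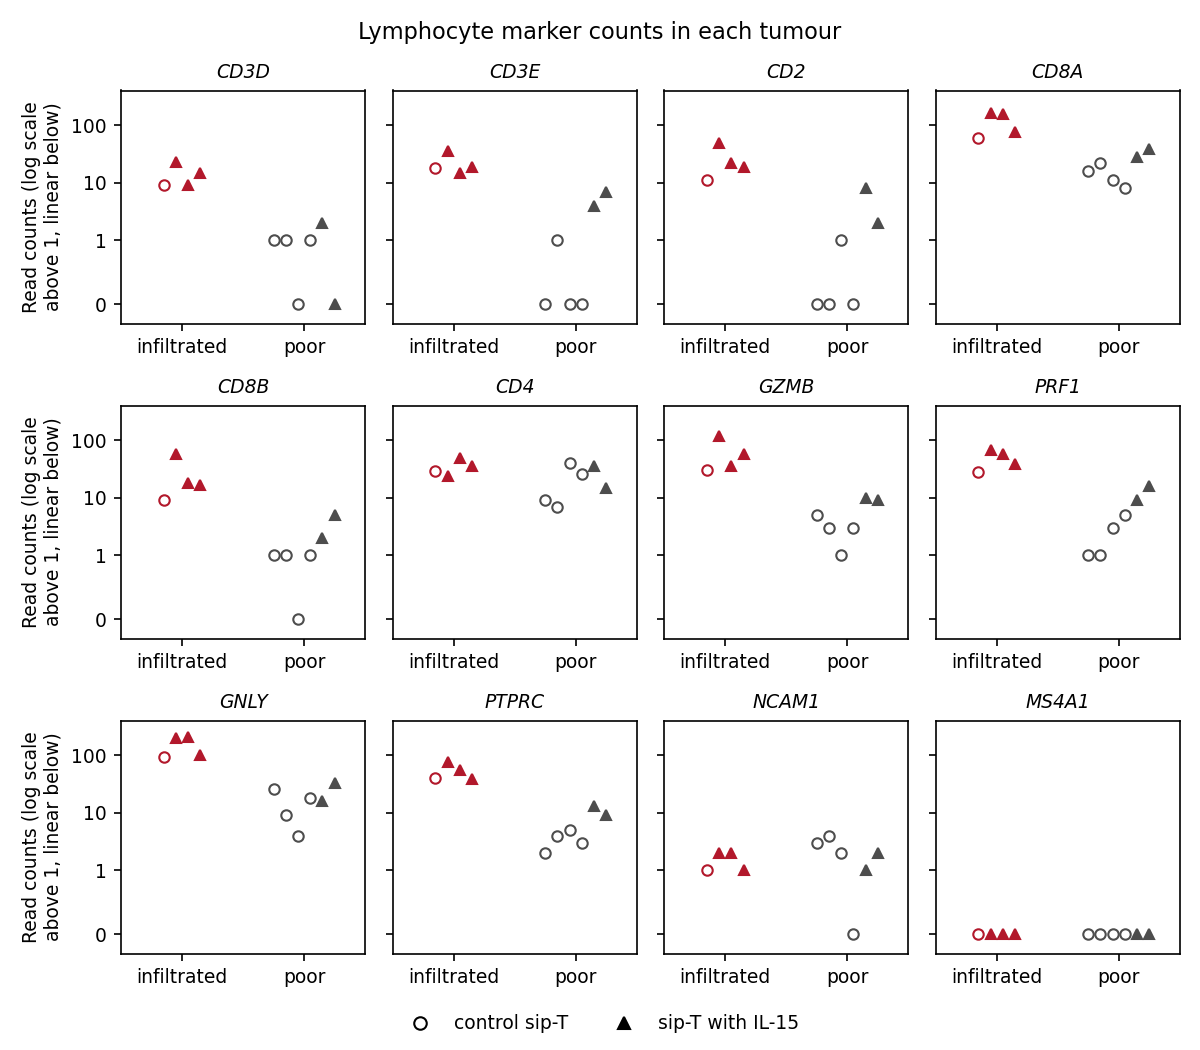
Read counts (log scale above 1, linear below) of 12 lymphocyte markers in each tumour, with infiltrated tumours in red and poor tumours in grey, circles for control sip-T and triangles for sip-T with IL-15. CD3D, CD3E, CD2, CD8A, CD8B, GZMB, PRF1, GNLY and PTPRC separate the sets, CD4 and NCAM1 overlap and MS4A1 is at 0 in all 10 tumours.

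Of the other receptor-complex genes, the adhesion receptor CD2 had 11, 49, 22 and 19 counts against 0, 0, 1, 0, 8 and 2. The scavenger-type receptor CD6 had 26, 71, 42 and 24 counts against 4, 3, 6, 1, 2 and 9 (log2 fold change 3.30 ± 0.51). IL-15 tumour 1 was highest for both, and IL-15 tumour 2 was the poor tumour nearest to the infiltrated ones for CD2. CD3G, CD247, CD27 and TRAT1 overlapped between the sets, as CD4 did.

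Of 15 listed T cell signalling genes, 10 were higher without overlap, and of the 7 that passed the filter 5. ZAP70, the kinase recruited to the CD3 chains, had 18, 82, 38 and 33 counts against 12, 1, 11, 7, 3 and 11. ITGAL, the integrin chain with which lymphocytes bind target cells, had 31, 100, 50 and 34 counts against 7, 5, 4, 9, 13 and 8 (log2 fold change 2.86 ± 0.41). LCK, the other receptor kinase, had 39, 53, 26 and 42 counts against 24, 43, 1, 13, 7 and 10 and overlapped through control tumour 2. RASGRP1 and LAT overlapped as well, with totals of 338 against 406 and 33 against 55 counts over the 4 and the 6 tumours.

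Of 11 cytotoxic effector genes, 6 were higher without overlap. The 6 that passed the filter had a median log2 fold change of 3.05 beside -0.0049 over all genes, and without a filter the list median was 2.20. Over the alternatives that kept the division, those on the log2 FPKM scale included, the list median ranged from 0.77 to 4.28. The summed list measured 16.2, 46.5, 30.02 and 21.99 CPM in control tumour 3 and IL-15 tumours 1, 3 and 4 against 1.83 (lowest), 4.40 (median) and 8.04 CPM (highest) in poor tumours. Granzyme B (GZMB), a protease that triggers apoptosis in target cells, had 30, 119, 35 and 58 counts against 5, 3, 1, 3, 10 and 9, a 13.0-fold difference in mean CPM. Perforin (PRF1), which lets granzymes into the target cell, had 28, 67, 57 and 38 counts against 1, 1, 3, 5, 9 and 16. Each infiltrated tumour lay above each poor tumour for both, and IL-15 tumours 2 and 5 were the highest of the poor ones.

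Granulysin (GNLY), a membrane-damaging granule protein, had 93, 196, 203 and 99 counts against 26, 9, 4, 18, 16 and 33 (log2 fold change 3.07 ± 0.47). NKG7, a granule protein of cytotoxic lymphocytes, had 33, 87, 34 and 28 counts against 12, 4, 6, 17, 15 and 10. Granzyme A (GZMA) had 12, 58, 53 and 22 counts against 1, 0, 1, 0, 14 and 11. GZMA was the exception among these genes, since IL-15 tumour 5 with 0.811 CPM exceeded control tumour 3 with 0.763 CPM, an overlap that TMM scaling removed. GZMK, a granzyme of memory T cells, was scarce, with 13 counts in all infiltrated and 5 in all poor tumours.

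Of 17 cytokine and homing receptors, 6 were higher without overlap, and of the 10 that passed the filter 8 were above 0 and 2 below. IL2RB, the beta chain shared by the IL-2 and IL-15 receptors, had 35, 70, 46 and 45 counts against 6, 1, 0, 0, 13 and 6, and IL2RG, the common gamma chain, 43, 25, 24 and 20 counts against 0, 1, 3, 7, 6 and 1. IL15RA, the private chain that presents IL-15, had 33, 10, 15 and 22 counts against 24, 22, 24, 54, 16 and 10 and overlapped. The signalling chains therefore separated the sets, control tumour 3 being the highest for IL2RG, while the private chain was as high in poor tumours. The chemokine receptor CXCR3, which guides effector T cells, totalled 65 counts in the 4 infiltrated tumours and 15 in the 6 poor tumours. CCR7, a receptor of naive and central memory T cells, totalled 9 counts against 6.

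Among T cell products, the chemokine CCL5 had 51, 109, 62 and 29 counts against 16, 17, 8, 2, 12 and 13, and CCL4 13, 21, 16 and 22 counts against 2, 0, 0, 0, 5 and 5. IFNG, the interferon gamma gene, had 2, 8, 9 and 7 counts against 1, 0, 0, 2, 0 and 0. IFNG overlapped because control tumours 3 and 5 had 2 counts each, and IL2 had 1 count in all 10 tumours. IL32 overlapped and was highest in poor IL-15 tumour 2, at 2146 counts.

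Inhibitory receptors of activated T cells were scarce but present. PDCD1, which encodes PD-1, had 5, 23, 16 and 18 counts against 2, 4, 4, 0, 5 and 2, and was higher in each infiltrated tumour once divided by library size. TIGIT had 10, 24, 9 and 3 counts against 1, 1, 0, 0, 1 and 1, and HAVCR2, which encodes TIM-3, 13, 19, 14 and 7 against 2, 2, 3, 1, 1 and 6. CTLA4 was detected in each infiltrated tumour, with 8 counts in total, and in none of the poor ones. ENTPD1 and CD101, also in this list, overlapped with log2 fold changes of -0.30 and -0.47. The median of the 3 members that passed the filter was -0.30, whereas without a filter the list median was 2.36. LAG3 overlapped with 37, 144, 106 and 77 counts against 51, 35, 28, 59, 65 and 48. Control tumour 1 had its 51 counts beside 2 of the leukocyte gene PTPRC, and which cells made the LAG3 counts was not tested.

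Of the T cell transcription factors, TBX21, which encodes T-bet, had 10, 17, 6 and 12 counts against 5, 0, 1, 3, 3 and 2, and IKZF1, a lymphocyte regulator, 17, 32, 20 and 21 against 3, 1, 1, 0, 1 and 6. Of 13 listed factors 3 were higher without overlap, IKZF1, TBX21 and RUNX3, of which RUNX3 overlapped with TMM scaling. IKZF3 had many more counts and overlapped, with 1103 against 1619 counts over the 4 and the 6 tumours. FOXP3, the factor of regulatory T cells, had 96 against 108 counts. The leukocyte gene PTPRC had 2 to 13 counts per poor tumour, and which cells made the IKZF3 and FOXP3 counts was not tested.

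Of 17 pan-leukocyte genes, 7 were higher without overlap. PTPRC, which encodes CD45 of all leukocytes, measured 2.54, 5.65, 3.76 and 2.71 CPM in control tumour 3 and IL-15 tumours 1, 3 and 4 and 0.133 (lowest), 0.281 (median) and 0.673 CPM (highest) in poor tumours. RAC2, a GTPase of blood cells, measured 1.65, 6.09, 3.35 and 3.498 CPM against 0.0573, 0.118 and 0.443 CPM, a 20.5-fold difference in mean. Both had no overlap, with IL-15 tumour 1 highest. LCP1, an actin-bundling protein also made by epithelial tumour cells, had 4118 to 10897 counts in infiltrated and 914 to 7714 in poor tumours, so it overlapped and outweighed the other genes of this list.

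Markers of other blood cells were low, with exceptions in control tumour 3 among both B cell and myeloid genes. The B cell gene MS4A1 was at 0 in all 10 tumours. The light chain gene IGKC had 72 counts in control tumour 3 and 0 in the other 9, beside 7 counts of JCHAIN and 9 of IGHM there. Summed B cell and plasma cell genes were 11.6 to 18.8 CPM in infiltrated and 7.75 to 18.1 CPM in poor tumours. The myeloid genes CD1C, CLEC9A and LILRA4 were at 0 in all 10 tumours. ITGAM had 52 counts in control tumour 3 and 9 or fewer in each other tumour. Summed monocyte, macrophage and dendritic cell genes were 5.58 to 7.59 CPM in infiltrated and 4.29 to 6.18 CPM in poor tumours, and 0 of the 20 listed genes separated the sets. Erythrocyte and platelet genes summed to 1.499 to 4.48 CPM against 0.983 to 3.25 CPM, with 0 of 8 separate.

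NK cell receptors were scarce, and NCAM1 and NCR1 were at or near the counting limit in most tumours. NCAM1 (CD56) had 1, 2, 2 and 1 counts against 3, 4, 2, 0, 1 and 2, and NCR1 (NKp46) 1 in each infiltrated tumour against 1, 0, 0, 6, 1 and 0. KLRD1, a receptor chain shared by NK and CD8 T cells, had 14, 8, 7 and 6 counts against 3, 2, 0, 0, 3 and 0. Its partner KLRC1 had 1, 16, 14 and 8 counts against 0, 0, 0, 0, 2 and 0. Of 18 listed NK cell receptors, KLRD1 and CD244 were higher without overlap. Summed over the list, they measured 3.18, 5.36, 4.99 and 3.43 CPM in control tumour 3 and IL-15 tumours 1, 3 and 4 and 0.973 to 2.79 CPM in poor tumours, without overlap. The list holds receptors such as KLRD1 and KLRC1 that CD8 T cells also express.

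Gamma and delta receptor genes did not follow the alpha and beta genes. TRGC1 had 17, 378, 443 and 630 counts in control tumour 3 and IL-15 tumours 1, 3 and 4 and 286, 100, 572, 185, 403 and 103 in the poor tumours. TRGC1 was thus lowest in an infiltrated tumour and abundant in poor ones. The leukocyte gene PTPRC had 2 to 13 counts in the poor tumours, so TRGC1 is not read here as a measure of T cells. Which cells made the TRGC1 counts was not tested. TRDC had 4 counts in the infiltrated and 6 in the poor tumours.

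The make-up of the lymphocyte RNA was described in the 4 infiltrated tumours by counts per 100 counts of the 3 defining genes. PTPRC stood at 51.3, 50.7, 60.4 and 48.1 and IL2RB at 44.9, 46.1, 50.5 and 57.0 in control tumour 3 and IL-15 tumours 1, 3 and 4. These ratios differed little, whereas CD8A ranged from 78.2 in control tumour 3 to 173 in IL-15 tumour 3. CD4 ranged from 15.8 in IL-15 tumour 1 to 54.9 in IL-15 tumour 3, and which cells made its counts was not tested. GZMB stood at 38.5 in control tumour 3 and IL-15 tumour 3 and at 78.3 and 73.4 in IL-15 tumours 1 and 4. GNLY was highest in IL-15 tumour 3, at 223, with 119 to 129 in the other infiltrated tumours. With 1 infiltrated control tumour, no comparison of these ratios by treatment was made.

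Outside the leukocyte lists 13 genes were called, all with a mean under 10 CPM and, as known biology, all expressed in blood cells, an assignment made after their values were seen and not tested. Of the 13, 7 reached the filter's cutoff in no poor tumour, and only ETS1 reached it in as many poor tumours as the filter asks for. The values of all 13 are therefore given as a description. LSP1, a cytoskeletal protein of leukocytes, measured 1.15, 5.65, 2.26 and 1.79 CPM in control tumour 3 and IL-15 tumours 1, 3 and 4 against 0.0692, 0.152 and 0.295 CPM (lowest, median, highest) in poor tumours (log2 fold change 3.78 ± 0.49). APOBEC3G, a cytidine deaminase that restricts retroviruses, measured 0.891, 3.67, 1.37 and 1.29 CPM against 0, 0.103 and 0.155 CPM (log2 fold change 4.06 ± 0.56). TNFSF10, which encodes the death ligand TRAIL, measured 2.86, 2.42, 3.28 and 1.93 CPM against 0.395, 0.560 and 0.931 CPM (log2 fold change 2.05 ± 0.31). All 3 separated the sets, and for TNFSF10 the infiltrated tumours were nearly level, without the peak in IL-15 tumour 1 seen for LSP1 and APOBEC3G.

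The remaining 10 were SRGN, the proteoglycan of cytotoxic granules (log2 fold change 3.03), SPN, which encodes CD43 (3.33), CD44, an adhesion receptor (2.91), CELF2, a splicing regulator (2.66), TNFRSF1B, a TNF receptor (2.61), WIPF1, a partner of the actin regulator WASP (2.54), ATP2A3, a calcium pump (2.52), SLA, a receptor adaptor (2.42), ETS1, a transcription factor (2.24) and GPSM3, a G protein regulator (1.73). Summed over the 24 called genes, infiltrated tumours held 56.9 to 137 CPM and poor tumours 7.44 to 17.99 CPM. Since the genes were called for this difference, the sum is a description.

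Tumour genes did not separate in the same way. Over the 262 tested genes of the tumour lists the median log2 fold change was -0.09, with 104 above 0 and 0 called by edgeR (smallest adjusted p = 0.997, 30 at an unadjusted p under 0.05, 5 of them higher and 25 of them lower). The 20 tested prostate lineage and antigen genes had 14 above 0 and a median of 0.02, and the 39 androgen response genes 24 above 0 and a median of 0.02. The 17 epithelial keratin and junction genes had 11 above 0 and a median of 0.07. These medians lay close to the -0.0049 of all genes.

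**Figure D3:**
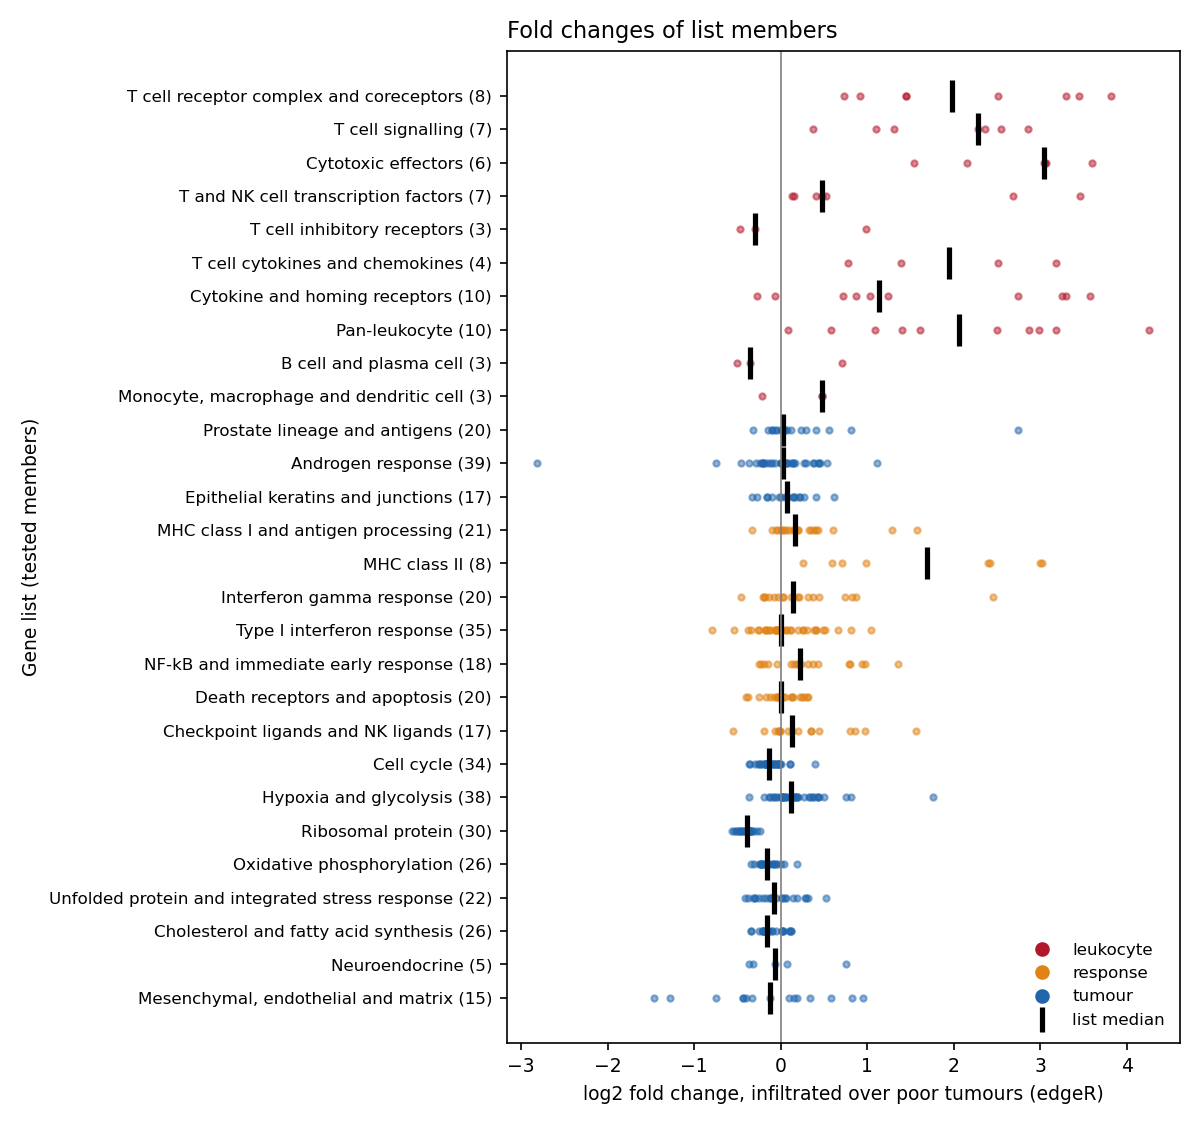
edgeR log2 fold changes, infiltrated over poor tumours, of the tested members of each list (points, coloured by class) with the list median (black bar) and the number tested in parentheses. Cytotoxic effectors have a median of 3.05 and MHC class II of 1.70, whereas prostate lineage and androgen response lists lie at 0.02 and ribosomal protein genes at -0.39.

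KLK3, which encodes PSA, measured 3825, 6379, 6270 and 7421 CPM in control tumour 3 and IL-15 tumours 1, 3 and 4 and 3261, 4813 and 6260 CPM (lowest, median, highest) in poor tumours (log2 fold change 0.30 ± 0.20, edgeR adjusted p = 0.997). FOLH1, which encodes prostate-specific membrane antigen, measured 839, 431, 604 and 464 CPM against 483, 594 and 831 CPM. Both overlapped, and control tumour 3 stood at the low end of the infiltrated tumours for KLK3 and at the high end for FOLH1.

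ACPP, the gene of PAP, against which sip-T is prepared, measured 140, 148, 402 and 147 CPM against 63.4, 106 and 172 CPM (log2 fold change 0.81 ± 0.33, edgeR adjusted p = 0.997). IL-15 tumour 3 alone lay above all poor tumours, and the poor control tumours 1 and 4 exceeded the other 3 infiltrated ones. STEAP4, a metalloreductase, measured 0.318, 16.3, 10.1 and 76.5 CPM against 0.761, 2.43 and 12.1 CPM, from the lowest value of all in control tumour 3 to the highest in IL-15 tumour 4. SGK1, an androgen and stress-responsive kinase, measured 17.4, 6.68, 10.6 and 7.07 CPM against 7.16, 28.4 and 203 CPM (log2 fold change -2.81 ± 1.02, edgeR adjusted p = 0.997). The keratins KRT8 and KRT18 and the adhesion molecule EPCAM had log2 fold changes of 0.07 ± 0.21, -0.10 ± 0.17 and 0.21 ± 0.23.

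Among response lists, MHC class II had the largest median. The 8 tested members were all above 0 and had a median of 1.70 on the log2 scale, 5 at an unadjusted p under 0.05 and 0 called by edgeR. The median was 1.76 within IL-15 tumours, 0.58 within controls and 1.205 adjusted for treatment. It was 0.94 without IL-15 tumour 4, 2.55 without control tumour 3 and 1.09 with limma voom. Over the alternatives that kept the division, those on the log2 FPKM scale included, it ranged from 0.37 to 2.55. HLA-DRA, the class II alpha chain (ENSG00000204287, chromosome 6), measured 1.40, 3.30, 2.74 and 1.93 CPM in control tumour 3 and IL-15 tumours 1, 3 and 4 and 0, 0.280 and 0.658 CPM (lowest, median, highest) in poor tumours (log2 fold change 3.02 ± 0.57, edgeR adjusted p = 0.0766). CD74, the invariant chain that escorts class II molecules, measured 6.42, 16.9, 7.93 and 9.21 CPM against 0.286, 1.87 and 3.75 CPM (log2 fold change 2.42 ± 0.51, edgeR adjusted p = 0.143). HLA-DPA1, another alpha chain, measured 0.6997, 3.23, 0.821 and 2.14 CPM against 0, 0.172 and 0.398 CPM. These 3 genes separated the sets in each tumour, although none passed edgeR, and DESeq2 called all 3 (adjusted p = 4.23e-04, 6.04e-04 and 0.0109). HLA-DRA and HLA-DPA1 reached the filter's cutoff of 0.673 CPM in no poor tumour. They entered the tests through the infiltrated tumours, so their calls are read as no evidence. Of 14 listed class II genes 8 passed the filter, and without a filter the list median was 2.40.

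Leukocytes also express class II genes, and the T cell genes were higher in the same tumours by construction. HLA-DRA stood at 28.2, 29.6, 44.0 and 34.2 counts per 100 defining counts in control tumour 3 and IL-15 tumours 1, 3 and 4. Summed B cell genes overlapped between the sets (14 of 16 genes detected, 11.6 to 18.8 CPM against 7.75 to 18.1 CPM), as did summed myeloid genes (17 of 20 detected, 5.58 to 7.59 CPM against 4.29 to 6.18 CPM), with MS4A1, CD1C, CLEC9A and LILRA4 at 0. The part of T, B and myeloid cells in the class II values was not tested.

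MHC class I genes and genes that load peptides on it differed less. Of 21 tested ones, 17 were above 0, with a median of 0.16, 3 at an unadjusted p under 0.05 and 0 called (smallest edgeR adjusted p = 0.723). HLA-F, a nonclassical class I gene, measured 1.85, 4.40, 3.08 and 1.86 CPM against 0.515, 1.02 and 1.77 CPM (log2 fold change 1.29 ± 0.38). TAPBP, which encodes the peptide-loading factor tapasin, measured 160, 125, 118 and 117 CPM against 75.2, 98.6 and 114 CPM (log2 fold change 0.39 ± 0.17). HLA-F and TAPBP were the members without overlap, in each case by a narrow margin to the highest poor tumour, and TAPBP overlapped once library sizes were scaled by TMM. Because HLA genes resemble each other closely, reads may be split among them and each HLA value is uncertain.

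Poor IL-15 tumour 5, with 12 defining counts, was high for single class I and interferon genes chosen after their values were seen, but not for the lists. Its class I sum was 2210 CPM against 2236 and 2251 CPM in control tumours 1 and 2, and its type I interferon sum 439 CPM against 465 CPM in control tumour 1. The immunoproteasome subunit PSMB9 measured 7.30 CPM there, against 1.02 to 2.93 CPM in infiltrated and 0.0573 to 1.46 CPM in the other poor tumours. The peptide transporter TAP1 measured 46.7 CPM there, against 19.6 to 29.8 CPM in infiltrated tumours. HLA-B, a classical class I gene, measured 62.9 CPM there, against 32.6, 42.4, 63.9 and 50.8 CPM in infiltrated tumours and 15.5 to 31.2 CPM in the other poor ones. IFI6, an interferon-induced mitochondrial protein, measured 31.6 CPM there, the highest of the 10 tumours, against 4.90 to 10.8 CPM in infiltrated tumours. IFNG had 0 counts in this tumour, below the limit of 3 counts.

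**Figure D4:**
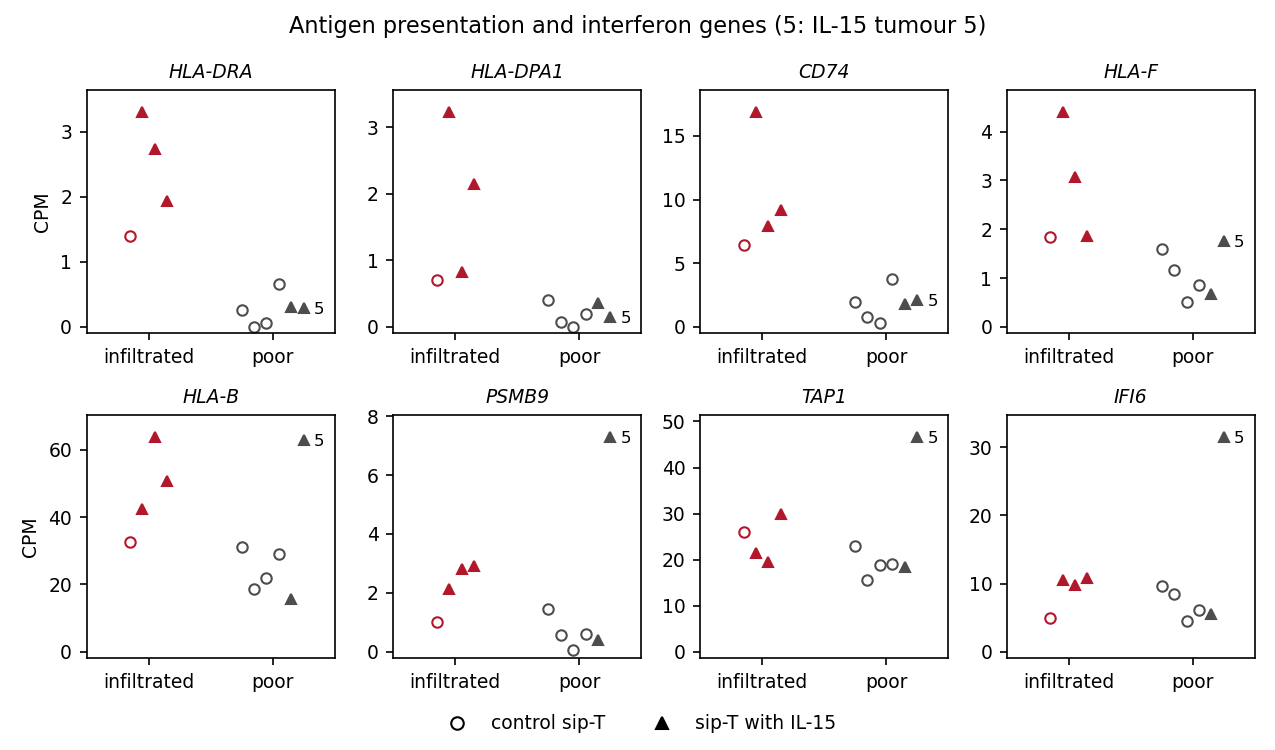
CPM of 8 antigen presentation and interferon genes in each tumour, infiltrated in red and poor in grey, circles for control sip-T and triangles for sip-T with IL-15, with poor IL-15 tumour 5 marked 5. HLA-DRA, HLA-DPA1, CD74 and HLA-F separate the sets, while IL-15 tumour 5 is highest for PSMB9 (7.30 CPM), TAP1 (46.7 CPM) and IFI6 (31.6 CPM).

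Interferon gamma response genes had 13 of 20 tested members above 0 and a median of 0.14, and type I interferon response genes 18 of 35 and a median of 0.0035, with 0 called by edgeR in either list and 2 and 3 at an unadjusted p under 0.05. IRF1, a transcription factor induced by interferon gamma, measured 7.82, 5.72, 10.6 and 5.07 CPM against 2.44, 3.54 and 7.67 CPM (log2 fold change 0.82 ± 0.33, edgeR adjusted p = 0.997), the highest poor value being that of IL-15 tumour 5. GBP4, an interferon-induced GTPase, measured 0.572, 1.76, 2.53 and 1.00 CPM against 0, 0.187 and 0.738 CPM (log2 fold change 2.45 ± 0.64, edgeR adjusted p = 0.446). STAT2, a subunit of the type I interferon signalling complex, had a log2 fold change of 0.51 ± 0.18, and IFI27 and BST2, interferon-induced membrane proteins, 0.81 ± 0.29 and 1.05 ± 0.44. Each overlapped with the poor tumours, IFI27 by library size only, and ISG15, an interferon-induced ubiquitin-like protein, had -0.06 ± 0.17.

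NF-kB and immediate early genes had 13 of 18 tested members above 0 (median 0.22), with 3 at an unadjusted p under 0.05 and 0 called by edgeR, and BIRC3, RELB and TNFAIP3 were highest in control tumour 3. BIRC3, an inhibitor of apoptosis induced by NF-kB, measured 39.4, 6.60, 12.03 and 11.9 CPM against 4.64, 6.99 and 9.10 CPM (log2 fold change 1.36 ± 0.44, edgeR adjusted p = 0.997). RELB, an NF-kB subunit, measured 15.3, 6.24, 6.56 and 4.43 CPM against 2.07, 4.12 and 5.92 CPM. TNFAIP3, which encodes the feedback inhibitor A20, measured 10.6, 8.22, 6.22 and 6.07 CPM against 3.04, 3.73 and 5.12 CPM (log2 fold change 0.94 ± 0.26, edgeR adjusted p = 0.538). TNFAIP3 was the tested member without overlap, whereas BIRC3 and RELB owed their fold changes largely to control tumour 3, with a log2 fold change of 0.45 and 0.65 within IL-15 tumours and 2.61 and 1.87 within controls.

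Ligands that lymphocytes read on tumour cells did not pass. Of 17 tested checkpoint and NK ligands 10 were above 0, with a median of 0.13. ULBP2, a stress ligand of the NKG2D receptor, measured 3.56, 6.68, 10.7 and 7.92 CPM against 2.37, 4.08 and 4.98 CPM (log2 fold change 0.80 ± 0.27, edgeR adjusted p = 0.997). NECTIN3, an adhesion ligand of the TIGIT family of receptors, had 1.57 ± 0.46, and CD274, which encodes PD-L1, -0.20 ± 0.45. For ULBP2 control tumour 3 lay within the poor tumours and the 3 infiltrated IL-15 tumours above them. Death receptor and apoptosis genes had 10 of 20 above 0 and a median of 0.01.

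Ribosomal protein, oxidative phosphorylation and cell cycle genes were mostly below 0 and hypoxia and glycolysis genes mostly above 0, without calls. All 30 ribosomal protein genes were below 0, with a median of -0.39 and 23 at an unadjusted p under 0.05 (1.75% of all genes were lower at that p). Of the 30, 5 were lower without overlap (RPL3, RPL19, RPS14 and RPS18 among them), beside 0.247% of all tested genes. Only RPS18 of these 5 stayed without overlap with TMM scaling. Their summed level was 39213, 33711, 27586 and 36409 CPM in control tumour 3 and IL-15 tumours 1, 3 and 4, and 37404, 43574 and 50910 CPM (lowest, median, highest) in poor tumours. The sums overlapped through control tumours 3 and 4. RPL3, a large-subunit protein, measured 2511, 2348, 2112 and 2439 CPM against 2721, 2926 and 3481 CPM (log2 fold change -0.41 ± 0.15, edgeR adjusted p = 0.997). Genes of 1 list are not independent of each other.

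Within IL-15 tumours the ribosomal median was -0.49 and within controls, where control tumour 3 is the single infiltrated tumour, -0.10. Adjusted for treatment it was -0.33, and 5 of the 30 genes were at an unadjusted p under 0.05. Leaving out 1 tumour gave from 3 such genes (without IL-15 tumour 3) to 28 (without control tumour 3), with 5 without IL-15 tumour 1, 7 without control tumour 5, 11 without control tumour 2 and 12 without IL-15 tumour 5.

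Oxidative phosphorylation genes had 3 of 26 above 0 (median -0.16) and cell cycle genes 4 of 34 (median -0.14). Their direction was not the same in both treatments. The cell cycle median was -0.32 within IL-15 tumours and 0.23 within controls, and the oxidative phosphorylation median -0.25 and 0.04. MKI67, a proliferation marker, measured 185, 146, 107 and 128 CPM against 89.1, 141 and 175 CPM (log2 fold change -0.01 ± 0.21). Hypoxia and glycolysis genes had 30 of 38 above 0 (median 0.12), again with opposite medians of -0.37 within IL-15 tumours and 0.71 within controls. The difference between both treatments was tested for single genes only, and the result is given at the end.

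**Figure D5:**
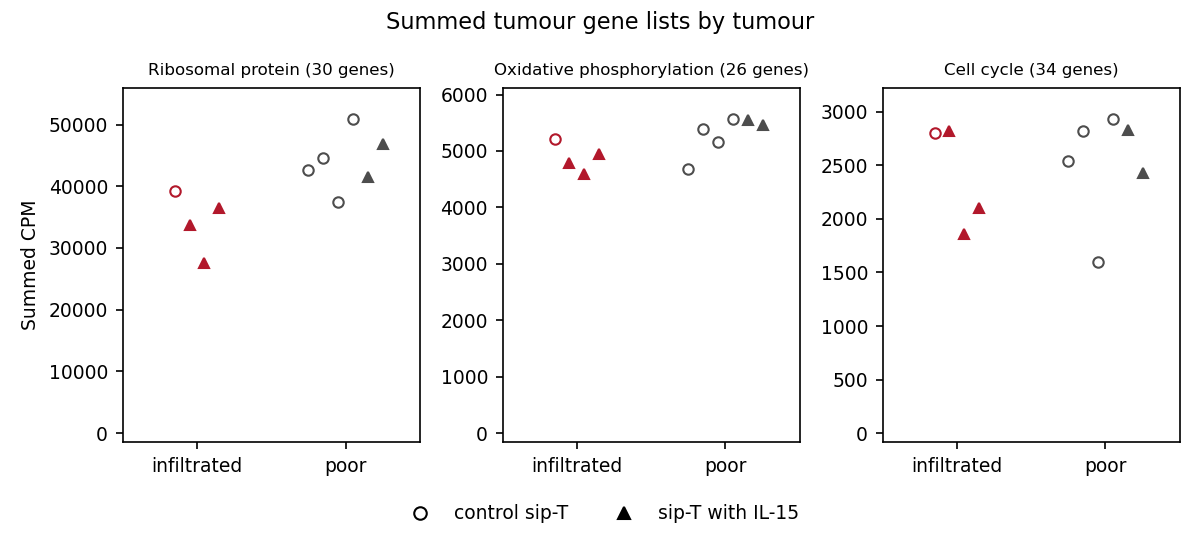
Summed CPM of the ribosomal protein, oxidative phosphorylation and cell cycle lists in each tumour, infiltrated in red and poor in grey, circles for control sip-T and triangles for sip-T with IL-15. Ribosomal sums reach from 27586 to 39213 CPM in infiltrated and from 37404 to 50910 CPM in poor tumours, and the other lists overlap more widely.

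Among the remaining lists, the unfolded protein and stress list had a median of -0.08, cholesterol and fatty acid synthesis -0.15, neuroendocrine genes -0.06 and mesenchymal, endothelial and matrix genes -0.12. COL1A1, a collagen chain, measured 16.2, 59.9, 59.8 and 62.5 CPM in control tumour 3 and IL-15 tumours 1, 3 and 4 and 11.3, 29.7 and 54.3 CPM (lowest, median, highest) in poor tumours. The 3 infiltrated IL-15 tumours lay above all poor tumours and control tumour 3 near the lowest. ENG, an endothelial receptor of the TGF-beta family, had a log2 fold change of 0.83 ± 0.28 and ACTA2, smooth muscle actin, -1.46 ± 0.54 (edgeR adjusted p = 0.997 for each).

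Of genes with a mean of 10 CPM or more outside the leukocyte lists, 0 of 10285 were called by edgeR, and at an unadjusted p under 0.05 there were 145 higher and 191 lower. DESeq2 called 8 of them, all higher, and limma voom 0. The smallest p belonged to FAM198B (ENSG00000164125, chromosome 4, 158124474 to 158173318), a Golgi membrane protein gene, with 21.1, 82.6, 78.9 and 26.8 CPM in control tumour 3 and IL-15 tumours 1, 3 and 4 against 3.49, 8.54 and 15.9 CPM in poor tumours (log2 fold change 2.36 ± 0.45, edgeR adjusted p = 0.119, DESeq2 adjusted p = 1.73e-05). CHDH, choline dehydrogenase of mitochondria (ENSG00000016391, chromosome 3, 53812335 to 53846390), measured 71.9, 77.8, 83.6 and 68.5 CPM against 31.5, 42.9 and 58.8 CPM (log2 fold change 0.74 ± 0.15, edgeR adjusted p = 0.124, DESeq2 adjusted p = 0.00712). OPTN, an autophagy receptor (ENSG00000123240, chromosome 10, 13099449 to 13138308), measured 25.3, 16.8, 37.9 and 15.2 CPM against 5.47, 9.02 and 13.2 CPM (log2 fold change 1.29 ± 0.29, edgeR adjusted p = 0.175, DESeq2 adjusted p = 0.0109). These genes separated the sets, and none passed the edgeR test.

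Of the next genes by p, PALMD (log2 fold change 0.77), PGM3, an enzyme of UDP-GlcNAc synthesis (0.59), and TNS2, a focal adhesion protein (0.92), separated the sets and were called by DESeq2 but not by edgeR. S100P (1.64) and FAM13A-AS1 (0.67), named after their values were seen, were called by DESeq2 and overlapped between the sets. FAM13A-AS1 is an antisense gene, and without stated strand its reads cannot be told from those of its partner. NFKBIZ, an NF-kB regulator (0.99), APP, the amyloid precursor gene (0.67), and MYADM (0.45) separated the sets without a call by either tool. APP measured 912, 696, 607 and 991 CPM against 390, 502 and 573 CPM, higher in each infiltrated tumour. U2AF1 (0.99), LAMB2 (0.69) and LMLN (0.77) overlapped, U2AF1 by library size only. LMLN, a metallopeptidase gene, measured 37.5 CPM in control tumour 3 and 81.7 to 92.0 CPM in the infiltrated IL-15 tumours against 30.2, 43.7 and 49.0 CPM in poor tumours, and it passed edgeR without control tumour 3 (adjusted p = 0.0312). TRIM49D1, named after its value was seen, passed there as well (log2 fold change 3.88, edgeR adjusted p = 0.0332).

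In the other direction POLR1E, an RNA polymerase I subunit, measured 38.0, 41.2, 28.9 and 39.8 CPM against 41.3, 55.1 and 63.5 CPM (log2 fold change -0.59 ± 0.17, edgeR adjusted p = 0.642). AGBL5, a tubulin deglutamylase (-0.46), BZW2, a translation regulator (-0.54), and LYRM4, a factor of iron-sulphur cluster assembly (-0.53), were also lower without overlap, but these 3 and POLR1E overlapped with TMM scaling. MARC1 (-0.53), TTC7B (-0.67), IGFBP2, an insulin-like growth factor binding protein (-0.85), RPL12 (-0.56) and SH3BGRL (-1.001) overlapped, MARC1 by library size only. IGFBP2 measured 114, 164, 163 and 211 CPM against 175, 284 and 392 CPM, so IL-15 tumour 4 alone lay within the poor tumours. Among scarcer genes GNG10 (-1.48), ZBTB7C (-1.78), NTN4 (-1.31), EPHA7 (-3.50), ROR1 (-0.88) and CLMP (-0.91) had the smallest p, of which CLMP did not overlap. None of these lower genes was called by edgeR (smallest adjusted p = 0.642) or by DESeq2.

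Infiltration and treatment were not independent here, since 3 of 4 infiltrated and 2 of 6 poor tumours had received IL-15. Within each treatment the values of single genes were as follows, with 1 infiltrated tumour among controls. CD8A had a log2 fold change of 2.05 within IL-15 tumours and 2.13 within controls, GNLY 2.77 and 2.73, GZMB 3.01 and 3.32, and PTPRC 2.48 and 3.53. The list medians were 1.78 and 1.82 for the receptor complex and 1.26 and -2.70 for gamma and delta genes. For the 3 inhibitory receptors that passed the filter they were -0.11 and -0.66. HLA-DRA had 2.99 and 2.55, and CD74 2.43 and 1.99. A test of the interaction of infiltration with treatment called 0 genes (smallest edgeR adjusted p = 0.239, 1359 at an unadjusted p under 0.05), and it rests on control tumour 3 as the 1 infiltrated control tumour. Among IL-15 tumours alone, 3 against 2, edgeR called 4 genes, none of them among the 24: TRIM49D1 (4.87), WLS (3.13), FAR2P2 (3.21) and CD177 (3.20), named after their values were seen.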

How the data were processed

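Total RNA of 10 xenograft tumours was sequenced, and the authors deposited raw read counts and FPKM values (fragments per kilobase, scaled to depth) per human gene, and group means of FPKM. The deposited control mean differed from that of the 5 control libraries in 38579 genes and was not used. Per the submitters' processing notes, the build was hg38 and the tools included featureCounts 1.5.0-p3, HISAT2 2.0.5, fastp and, among others, GATK 4.1.1.0, without a stated role or strand setting. The deposited counts were used for all tests and the deposited FPKM values for levels per length. The count table lists 58735 genes, of which 17801 had no count. Genes of the Y chromosome, XIST and the 3 defining genes (523 in all) were left out, and some genes are not reported here.

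Tumours were divided by the summed counts of TRAC, TRBC1 and TRBC2 at 40. Infiltrated and poor tumours were compared with edgeR 4.0.16 in R 4.3.3 (TMM scaling, filterByExpr with a minimum count of 10, robust quasi-likelihood test, all 10 libraries, no covariate), with Benjamini-Hochberg adjustment over 17397 genes and a threshold of 0.05. limma 3.58.1 and DESeq2 1.42.0 served as alternatives, beside other scalings, filters, covariates and leaving out each library. The scripts were tested on simulated data. Genes were grouped in 31 lists of 635 symbols, of which 1 was not matched and 2 were matched under former symbols. Leukocyte genes stayed in the fit across all genes, but their values are given as a description and no call among them is read as evidence, since the same cells made the division. Named genes are list members, called genes and those with the smallest p above and below a mean of 10 CPM. The members and lists were chosen with earlier results of these data known. The 45 pairs of libraries differed by more than counting noise, with a chi-square of 20.35 to 90.25 for each degree of freedom.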

Additional observations from a re-analysis of the deposited data

Results flagged for a closer look

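Of 233 sets of values examined, 11 had 1 tumour set far apart from the others of its set, and chance alone flags about 1 in 20 by the construction of the critical value, so that 11 of 233 is no more than that share. Control tumour 3 stood apart from the other infiltrated tumours in 4 of them. Its gamma and delta receptor genes summed to 1.53 CPM, the nearest tumour having 29.9 CPM, and TRGC1 alone to 1.08 CPM against 27.7 CPM. LMLN measured 37.5 CPM there against 81.7 CPM in the nearest, and IGKC 4.58 CPM against 0. IL-15 tumour 1 had the highest sum of T cell cytokines and chemokines, 96.6 CPM against 57.0 CPM in the nearest, and IL-15 tumour 3 the highest ACPP, 402.5 CPM against 148 CPM.

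Among poor tumours, control tumour 1 had 3.25 CPM of erythrocyte and platelet genes against 1.31 CPM in the nearest. Control tumour 2 had the lowest androgen response sum, 13310 CPM against 17140 CPM, and the highest HERC3, 157 CPM against 83.5 CPM. Control tumour 4 had the lowest cell cycle sum, 1594 CPM against 2427 CPM, and IL-15 tumour 2 the lowest ENG, 1.60 CPM against 3.32 CPM. No cause was tested for any of these values.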

How the results depend on the processing

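The 24 higher calls depended on the tool, the filter and single tumours. Without a filter 99 genes were higher, 5 of them with a mean of 10 CPM or more outside the leukocyte lists (CHDH, LMLN, TNS2, U2AF1 and OPTN), and DESeq2 gave 67 and 8. limma on log2(FPKM + 0.1) called 2 genes higher and 1 lower, and on log2(FPKM + 1) 1 gene higher. Treatment as a covariate left 2. Leaving out 1 library gave 0 to 22 calls, and 0 to 2 among abundant genes. IL-15 libraries alone gave 4, of which 2 were abundant, with KLK4 at 0.10 on the log2 scale beside -0.31. The other scalings gave 24 or 25 higher calls, limma voom 29, a mean of at least 1 CPM 18, the cut on the depth-scaled sum 24 and the continuous sum 27, of which 14 were shared with the 24.

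With a replicate block edgeR called 0 genes (317 at an unadjusted p under 0.05, smallest adjusted p = 0.391), BIRC3 stood at -0.046 and ACPP at -0.17 on the log2 scale, and the ribosomal median at -0.21 with 28 of 30 below 0. Over all tested genes, the correlations of same-numbered tumours were 0.244, 0.015, -0.16, -0.229 and -0.072. Correlations over all genes cannot tell whether the numbers mark a shared donor or batch that touches few genes, and the labels do not say. The ribosomal median ranged from -0.49 to -0.29 when 1 library was left out, with 3 to 28 members at an unadjusted p under 0.05, and with the block 0. With the continuous sum all 30 ribosomal genes were below 0, and 0 had an unadjusted p under 0.05. Over the named genes, 1526 alternative values kept direction and side of the threshold, 161 lost and 19 gained a call and 3 changed sign. The cause was not tested. Only genes called in the main fit could lose a call, so the 161 fall on those genes alone. Of 24 alternatives, the called genes kept their call in 7 (TNFRSF1B among them) to 17 (RAC2). The sets did not overlap for 52 leukocyte genes in CPM by library size and for 51 with TMM scaling, 49 of them shared. Transcripts with a few counts per tumour limit all statements on B and myeloid cells.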
